A study of Mus musculus with 8 samples.

Results

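Of 33920 regions of histone H3 lysine 27 acetylation (H3K27ac), 365 had a peak in both EGF-treated libraries of Arid1a-intact cells, in neither untreated control library, and in at most 1 of the EGF-treated Arid1a knockdown libraries. These regions are called weakened EGF gains here. They make up 1.08% of the regions and 53.8% of the 678 that EGF-treated intact cells gained over control. In 180 of them neither EGF-treated knockdown library had a peak, and in 185 of them 1 did. The remaining 313 gains (46.2%), with a peak in both EGF-treated knockdown libraries, are called kept gains. The regions were chosen by peak presence in 6 of the 8 libraries, so their values there are a description and carry no test. The vehicle-treated knockdown libraries were not used in the choice, except that their peaks helped to set the bounds of regions.

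The cells were 266-6, a mouse pancreatic acinar line. Libraries are named siArid1aplusEGF (siRNA against ARID1A, then EGF at 40 ng/ml), EGF (non-targeting siRNA, then EGF at 40 ng/ml), siArid1a (siRNA against ARID1A, then vehicle) and ctrl (non-targeting siRNA, then vehicle), with 2 libraries each. All 4 groups received 25 nM siRNA for 48 h, an overnight serum starvation, and 8 h of EGF or of 0.1% BSA as vehicle. Knockdown was transient and its extent was not analysed here. Whether the siRNAs against ARID1A match the mouse gene is not given in the labels, so knockdown and intact stand for the siRNA given and not for a measured level of Arid1a. No label tells whether duplicates were separate cultures, so any p-value measures only the spread between these libraries. The acinar identity of the cells was not checked against marker genes, because no gene annotation of build mm9 was used here.

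H3K27ac marks active promoters and enhancers. EGF binds its receptor and starts the RAS and ERK kinase cascade, which activates transcription factors such as AP-1 and ETS proteins. These in turn act at enhancers that gain acetylation. ARID1A is the DNA-binding subunit of the BAF form of the SWI/SNF complex, which moves nucleosomes and helps to keep enhancers open. In the pancreas, EGF receptor signalling is known to drive acinar cells towards a duct-like state.

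The lists held 22030 and 23256 peaks for siArid1aplusEGF, 22361 and 23080 for EGF, 26844 and 27558 for siArid1a, and 22167 and 28281 for ctrl. The siArid1aplusEGF and EGF lists were thus of similar length, while the second ctrl list was the longest of the 8. Read depth is unknown, so no counting interval is given. The part of list length in what follows was not tested, and a region without a peak may still carry some of the mark. In a bulk sample, fewer cells with the mark and less mark per cell cannot be told apart.

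The strongest weakened gains without a siArid1aplusEGF peak were ranked by the lower of their −log10 q percentiles within the EGF lists. The first lay on chromosome 13 from 49273954 to 49274885. Peaks covered 628 and 932 bp of it in the EGF libraries, and no peak was called there in any siArid1aplusEGF, siArid1a or ctrl library. Its −log10 q was 3.53 and 3.95 in the EGF lists, close to the list medians of 3.59 and 4.05. The second, on chromosome 6 from 47312709 to 47313786, was covered over 1078 and 367 bp with EGF. The third, on chromosome 1 from 190654152 to 190654992, was covered over 376 and 764 bp, and the fourth, on chromosome 4 from 46712704 to 46713742, over 459 and 887 bp. In all 10 of the highest-ranked regions the 2 EGF libraries alone held a peak. The EGF replicates differed in covered length by more than 1.5 times in 7 of these 10 regions. A region on chromosome 5 from 35808779 to 35809566 was the most even of them, with 786 and 781 bp in the EGF libraries. Another on chromosome 11, from 20705507 to 20706424, had 257 and 866 bp.

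**Figure D1:**
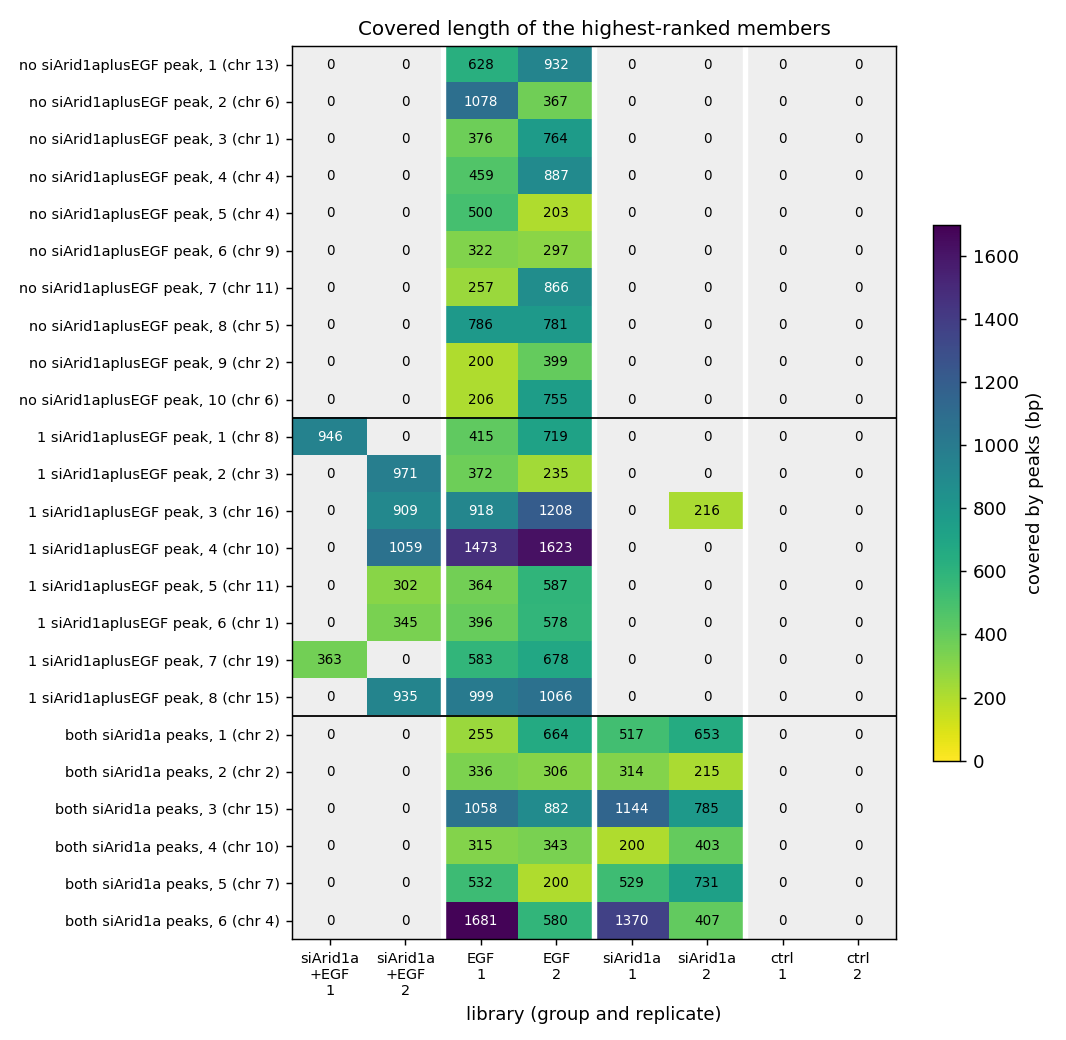
Covered length in bp (colour and printed number, 0 where no peak was called) of the highest-ranked weakened gains (down the page) in each of the 8 libraries (across). From top to bottom are 10 regions without a siArid1aplusEGF peak, 8 with 1 such peak, and 6 without one but with a peak in both siArid1a libraries. The 10 uppermost regions show colour in the EGF libraries alone, and the ctrl libraries are at 0 throughout by the choice of regions.

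The widest region without a siArid1aplusEGF peak spanned 3470 bp on chromosome 10 from 34229293 to 34232762. Peaks covered 2101 and 3371 bp of it in the EGF libraries, and 0 and 251 bp in the siArid1a libraries. Both EGF values were the highest of this class, whose covered length had a median of 493.5 bp in the first EGF library and 614.5 bp in the second. The next widest were a 2074 bp region on chromosome 4 from 51686506 to 51688579 and a 2010 bp region on chromosome 1 from 73732028 to 73734037. The region on chromosome 1 had 323 and 2010 bp with EGF. In 361 of the 365 weakened gains the peaks of the 2 EGF libraries shared at least 1 bp. The median Jaccard index of their positions, shared over total covered bp, was 0.46 without a siArid1aplusEGF peak, 0.60 with 1, and 0.69 in kept gains.

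Among the 185 regions with 1 siArid1aplusEGF peak, the second library held that peak in 124 and the first in 61. The strongest, on chromosome 8 from 10977957 to 10978902, was covered over 946 and 0 bp in the siArid1aplusEGF libraries, against 415 and 719 bp in the EGF libraries. The longest of its peaks was thus a knockdown one. The region on chromosome 3 from 79752821 to 79753791 had 0 and 971 bp in siArid1aplusEGF libraries and 372 and 235 bp in EGF libraries. In both regions the group ranges overlapped. On chromosome 10 from 87143061 to 87144742 the siArid1aplusEGF libraries had 0 and 1059 bp and the EGF libraries 1473 and 1623 bp. On chromosome 15 from 7546913 to 7547978 they had 0 and 935 bp against 999 and 1066 bp. Here the siArid1aplusEGF library with a peak came near the EGF level while the other had none. The widest member of this class, 3500 bp on chromosome 5 from 113386930 to 113390429, had 0 and 2773 bp in siArid1aplusEGF libraries and 2408 and 3116 bp in EGF libraries. By the rule, the knockdown replicates disagree on a peak in every region of this class. In some of the regions named here they differed as much as the groups did.

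Most members were weak peaks in the EGF lists themselves. The lower of the EGF percentiles had a median of 8.04 without a siArid1aplusEGF peak, 11.04 with 1, and 17.6 in kept gains, against 50.9 over all 19809 regions with both EGF peaks. Of the weakened gains, 183 (50.1%) lay below percentile 10 and 1 lay at or above percentile 50. Median fold enrichment over the caller's background in the EGF libraries was 3.64 and 3.77 without a siArid1aplusEGF peak, 3.74 and 3.83 with 1, and 3.93 and 4.07 in kept gains, against 4.62 and 4.78 over all peaks of those lists. Union width followed the same order, with medians of 806, 895 and 1139 bp. Where 1 siArid1aplusEGF peak was present it too was weak, with a median percentile of 10.7 in the first list and 12.3 in the second.

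**Figure D2:**
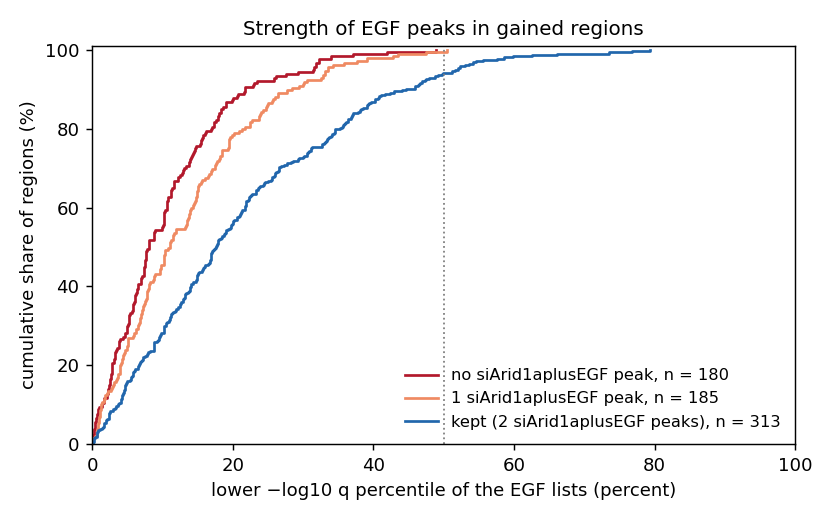
Cumulative share of regions (vertical, %) by the lower −log10 q percentile of the EGF lists (horizontal) for weakened gains without a siArid1aplusEGF peak, with 1, and for kept gains, 1 line each. The medians are 8.04, 11.04 and 17.6, and the dotted line marks the middle of the lists.

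At the boundary of the choice, the weakest members were close to the lowest −log10 q that the authors' lists contain. A region on chromosome 15 from 42261254 to 42262014 had −log10 q of 2.06 and 1.05 in the EGF lists, whose lowest values were 1.04 and 1.05. One on chromosome 2 from 164642817 to 164643991 had 1.07 and 1.13 in the EGF lists and 1.73 in the first siArid1aplusEGF list, where it was covered over 892 bp. These regions entered by a narrow margin in at least 1 EGF library. On the other side, kept gains had a median −log10 q of 2.14 and 2.24 in the siArid1aplusEGF lists, against 1.71 and 1.73 for the regions with 1 such peak.

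In each of the 5 bins of EGF peak strength, the share without a siArid1aplusEGF peak was higher for gains than for regions with a ctrl peak. Below percentile 5, 53 of 149 gains (35.6%) had no siArid1aplusEGF peak and a further 46 had 1. Of 520 regions of that strength with both ctrl peaks, 78 (15.0%) had no siArid1aplusEGF peak and 108 had 1. At percentiles 5 to 10 the shares were a little higher, at 37.7% of 122 gains and 16.2% of 588 regions with both ctrl peaks. At percentiles 10 to 20, 28.2% of 206 gains had no siArid1aplusEGF peak, against 7.91% of 1466 regions with both ctrl peaks. At percentiles 20 to 30 the shares were 14.4% of 90 gains and 2.64% of 1626 regions with both ctrl peaks. At percentile 30 and above they were 9.01% of 111 gains and 0.215% of 13493 regions. Strength was not matched within this wide bin. Only 1 weakened gain and 18 kept gains lay at or above percentile 50, while all regions with both EGF peaks had a median of 50.9. Regions with 1 ctrl peak lay between, at 26.7% below percentile 5, 27.04% at 5 to 10 and 18.3% at 10 to 20. At 20 to 30 their share was 13.4% of 261 regions, close to that of gains, and at 30 and above it was 4.35%. From percentile 10 upwards the share was lower in each stronger bin, for gains and for regions with 1 or both ctrl peaks alike. These are counts over regions, which are not replicates of a condition, and no test was made.

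**Figure D3:**
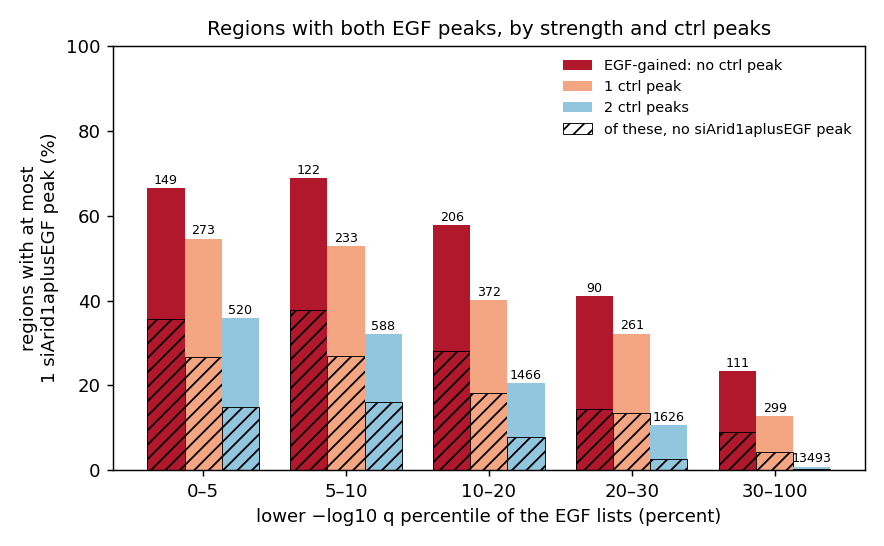
Share of regions with at most 1 siArid1aplusEGF peak (vertical, %) by the lower −log10 q percentile of the EGF lists (horizontal), for regions with both EGF peaks and 0, 1 or 2 ctrl peaks. Hatching marks those without a siArid1aplusEGF peak and the number over a bar is the number of regions in it. Below percentile 5 the hatched share is 35.6% for gains and 15.0% with both ctrl peaks, and bars are lower in the strongest bin.

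The numbers of members depended on single libraries. Without the second ctrl library 422 regions had no siArid1aplusEGF peak and 463 had 1. With the first EGF library left out the counts were 604 and 340, and with the second left out 465 and 272. If the first siArid1aplusEGF library was dropped, 241 gains had no peak in the other, and 304 if the second was dropped. Leaving out an EGF or ctrl library can only add members, since fewer libraries must then meet the rule. When the roles of the EGF groups were exchanged, 185 regions had a peak in both siArid1aplusEGF libraries, none in ctrl and none in EGF libraries, and 157 had 1 EGF peak. These 342 regions, found with knockdown, stand beside the 365 weakened gains found in intact cells. The exchanged counts share the ctrl libraries and the 313 kept gains with the first, so they are given side by side only.

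The siArid1a libraries, which the choice of regions left free apart from the bounds of regions, mostly had no peak in weakened gains either. In the class without a siArid1aplusEGF peak, 150 of 180 regions (83.3%) had no siArid1a peak, 17 had 1 and 13 had both. In the class with 1 siArid1aplusEGF peak, 126 of 185 (68.1%) had none, 38 had 1 and 21 had both. Of the kept gains, 137 of 313 (43.8%) had none, 86 had 1 and 90 had both. A siArid1a peak in at least 1 library was therefore found in 16.7%, 31.9% and 56.2% of these classes, against 86.6% of all regions. So 150 regions carried a peak in the EGF libraries alone. At strengths below percentile 5 the same shares were 22.6%, 39.1% and 58.0%, and at percentiles 10 to 20 they were 15.5%, 26.2% and 60.9%. The order of the classes was the same in all 5 bins of strength, the strongest of which held 10 regions of the first class. The siArid1a lists were longer than the siArid1aplusEGF lists. Leaving out the first or second siArid1a library turned the 34 weakened gains with both peaks into 67 or 56 with the remaining one, and without the second ctrl library 279 had both.

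**Figure D4:**
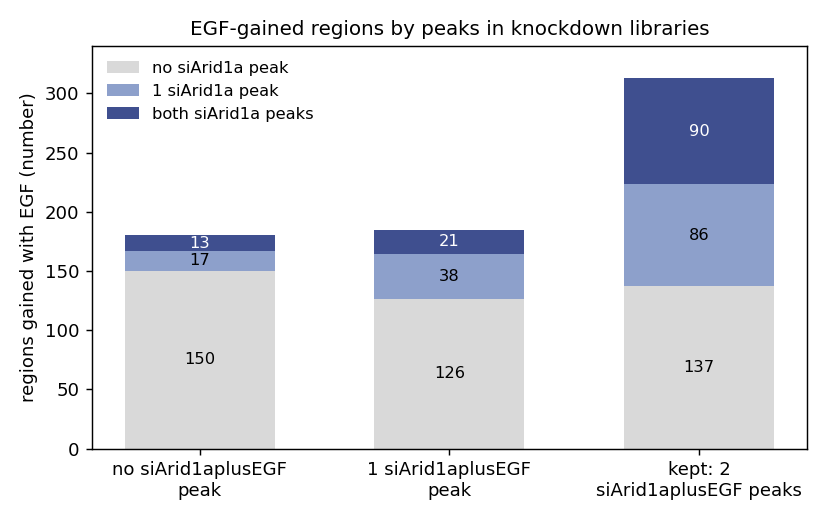
Number of EGF-gained regions (vertical) by the number of siArid1aplusEGF peaks (bars) and of siArid1a peaks (colours, with the count in each segment). Regions without a siArid1a peak are 150 of 180, 126 of 185 and 137 of 313 from left to right.

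In 13 weakened gains EGF and vehicle libraries had opposite patterns in the Arid1a states. These had a peak in both EGF and both siArid1a libraries, and in no siArid1aplusEGF or ctrl library. On chromosome 15, positions 30534862 to 30536453 were covered over 1058 and 882 bp in EGF libraries, 1144 and 785 bp in siArid1a libraries, and not at all in the other groups. The covered lengths of the EGF and siArid1a libraries overlapped. Fitted differences in log2(covered bp + 200) were 2.54 ± 0.34 for EGF minus ctrl, 2.52 ± 0.34 for siArid1a minus ctrl and -2.52 ± 0.34 for siArid1aplusEGF minus siArid1a (SE, limma). On chromosome 4 the region from 51686506 to 51688579 had 1681 and 580 bp with EGF and 1370 and 407 bp with siArid1a. On chromosome 2 the region from 163720575 to 163722070 had 255 and 664 bp with EGF, at places that did not overlap, and 517 and 653 bp with siArid1a. The siArid1a peaks alone joined these EGF peaks into 1 region. It met the rule only through them, so its siArid1a values follow from the merging. The region on chromosome 7 from 91827644 to 91828604 had 532 and 200 bp with EGF and 529 and 731 bp with siArid1a. All 13 were weak, with a lower EGF percentile of 0.0087 to 14.6. The reverse pattern, peaks in both ctrl and both siArid1aplusEGF libraries alone, was found in 1 region.

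Limma was fitted to log2(covered bp + 200) for the 28146 regions where 2 or more libraries had a peak. All 365 weakened gains passed that filter because the choice required both EGF peaks. Their differences follow from the choice, so only sizes are given. EGF minus ctrl ranged from 1.05 to 3.84 with a median of 1.85 without a siArid1aplusEGF peak, from 1.04 to 3.88 with a median of 1.91 with 1, and had a median of 2.16 in kept gains. The median over all regions was -0.14. For siArid1aplusEGF minus EGF the medians were -1.85, -1.10 and -0.02 in these classes and 0 over all regions. In 183 of the 185 regions with 1 siArid1aplusEGF peak this difference was below 0. At an adjusted p under 0.05, 97 weakened gains were called higher for EGF minus ctrl (background 1.05% of all regions higher and 2.9% lower) and 41 were called lower for siArid1aplusEGF minus EGF (background 0.426% lower and 0.234% higher). All 41 were regions without a siArid1aplusEGF peak. The rule used both contrasts, and nothing is read from these counts. For siArid1a minus ctrl 1 member was called higher (background 1.09% higher and 0.274% lower), and for siArid1aplusEGF minus siArid1a 4 were called lower (background 6% lower and 0.622% higher). The chromosome 2 region from 163720575, joined by siArid1a peaks alone, was among these 4. The siArid1a minus ctrl call was lost without any 1 EGF or siArid1aplusEGF library. The calls of that comparison over all regions were lost there as well, so the loss was not particular to this member. Its calls also changed in number when a siArid1a library was left out. With every library 385 of all regions were called (calls over all regions are in either direction). For siArid1aplusEGF minus siArid1a, 0 members were called without either siArid1aplusEGF library (0 and 55 of all regions). With every library 1864 of all regions were called. Without a siArid1a library 9 members were called (1464 and 1295 of all regions), and without a ctrl library 8 (3810 and 3804 of all regions).

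The difference between the EGF effects of the Arid1a states was fitted in the same model. Of its 4 groups the choice of members fixed all but siArid1a, so its sign and p in weakened gains follow largely from the choice and nothing is read from them. Limma called 0 of the 28146 regions in either direction (background 0%), while 2525 regions, 212 of them weakened gains, had an unadjusted p under 0.05. Their median difference in EGF effect was -1.96 without a siArid1aplusEGF peak, with a median SE of 0.46, and -1.39 with 1, with a median SE of 0.91. Kept gains had -0.74 and all regions -0.16. The count of 0 rested on single libraries. Without the first siArid1a library 71 weakened gains passed among 762 of all regions, without the second 65 among 772, and without the second ctrl library 54 among 1348, while leaving out any other library gave 0. With 1 library left in a group, that library is assumed to vary like the others. Member calls for siArid1aplusEGF minus EGF were 0 without either EGF library (0 of all regions) or either siArid1aplusEGF library (0 and 4 of all regions). They were 74 and 69 without a siArid1a library (197 of all regions each) and 77 and 71 without a ctrl library (581 and 561 of all regions). For EGF minus ctrl, 0 members and 0 of all regions were called without either EGF library.

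Weakened gains lay farther than regions in general from the regions shared by all libraries, and nearer to another weakened gain. The nearest region with a peak in all 8 libraries was at a median of 35.9 kb without a siArid1aplusEGF peak, 27.5 kb with 1, and 18.0 kb for kept gains, against 17.8 kb over all regions. Of all regions, 49.0% themselves had a peak in all 8 libraries. Other weak regions were not compared, so this distance may not be particular to weakened gains. The nearest region of any kind was at a median of 9.75 kb from a weakened gain and 7.83 kb over all regions. Another weakened gain lay within 10 kb for 12 of the 365 (3.29%) and within 50 kb for 31 (8.49%), against 0.805% and 3.14% over all regions. The median distance to it was 1246 kb from a weakened gain and 1951 kb over all regions. Nearness within a class was not particular to weakened gains. Another kept gain lay within 10 kb of 3.83% of kept gains and within 50 kb of 10.2%, against 0.788% and 3.17% over all regions. Its median distance from a kept gain was 1289 kb. Of the kept gains, 2.24% had a weakened gain within 10 kb and 6.39% within 50 kb. No test of these distances was made. The 12 weakened gains with another within 10 kb formed 6 pairs and no larger group. The closest pair lay 2.08 kb apart on chromosome 5. Its left region, from 129397361 to 129398084, was covered over 569 and 0 bp in siArid1aplusEGF libraries and 528 and 724 bp in EGF libraries. Its right region, from 129400169 to 129401527, had no siArid1aplusEGF peak and 1003 and 1060 bp in EGF libraries. A second pair on chromosome 5, from 74744260 to 74744752 and from 74747335 to 74748924, had no siArid1aplusEGF peak in either region. It was covered over 405 and 408 bp, and over 397 and 1274 bp, in the EGF libraries. The pair on chromosome 2 that starts at 138018485 and the pair on chromosome 7 that starts at 121983442 each joined a region with 1 siArid1aplusEGF peak to a region with none.

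Looser runs were picked after the positions were seen, as 3 or more weakened gains with gaps of at most 200 kb. There were 7 of them, on chromosomes 3, 4, 6, 7, 11, 13 and 15. Each run held 1 to 3 regions that were not weakened gains, and none of these was a kept gain. Kept gains make up 0.923% of all regions, so nothing is read from their absence among so few. On chromosome 3, 4 weakened gains lay within 96.3 kb between 100614142 and 100710460, beside 2 regions with a peak in all 8 libraries. Their covered length in the EGF libraries was 724 and 682, 1475 and 1076, 326 and 1084, and 621 and 507 bp. The second of them had 0 and 1219 bp in siArid1aplusEGF libraries and the fourth 221 and 0 bp. On chromosome 15, 4 members lay within 264 kb between 7283649 and 7547978. The first of these had 0 and 317 bp in siArid1aplusEGF libraries and 1917 and 1963 bp in EGF libraries. The third, from 7503051 to 7504454, had 0 and 1053 bp and 1404 and 959 bp in the same order of groups. On chromosome 6, 3 members between 53522876 and 53710677 all lacked a siArid1aplusEGF peak. None of the members named in these runs had a siArid1a peak.

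Members were found on 20 chromosomes, the 19 autosomes and X, at 10.8 per 1000 regions overall. The density was highest on chromosomes 15, with 26 members or 16.2 per 1000 regions, and 5, with 34 or 15.5. It was lowest on chromosomes 17, with 8 or 5.68, and X, with 2 or 2.91. Kept gains had 14.3 per 1000 on chromosome 15 but 7.28 on chromosome 5 and 10.2 on chromosome X. These densities are a description, since neighbouring regions are not independent.

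The 261 other regions within 10 kb of a weakened gain were compared over libraries. Of these, 7 were kept gains, which by definition had both EGF peaks and no ctrl peak. The kept gains were not taken out, and their part in the sums and calls was not tested. The summed covered length of the 261 regions was 263 and 287 kb in siArid1aplusEGF, 288 and 304 kb in EGF, 301 and 322 kb in siArid1a, and 233 and 325 kb in ctrl libraries. The ctrl libraries lay on either side of all the others. EGF minus ctrl was 16.8 kb and siArid1aplusEGF minus EGF was -21.1 kb, with two-sided exact permutation p of 1 and 0.333 (n = 2 libraries each, the smallest p possible being 0.333). The sign of the first turned to -29.2 kb without the first ctrl library. As a share of each list's own covered length, a scale added after the data were seen, the flanks held 0.774 ± 0.0099% in siArid1aplusEGF, 0.853 ± 0.0030% in EGF, 0.655 ± 0.0081% in siArid1a and 0.684 ± 0.0071% in ctrl libraries (SD, n = 2). On that scale no 2 groups overlapped, and each pair compared had an exact permutation p of 0.333, the smallest that 2 against 2 allow. Around kept gains the shares were 0.874 ± 0.0089% in siArid1aplusEGF and 0.861 ± 0.0015% in EGF libraries, and 0.701 ± 0.0045% in siArid1a and 0.733 ± 0.033% in ctrl libraries (SD, n = 2). The share near weakened gains was thus lower in siArid1aplusEGF than in EGF libraries, which was not so near kept gains; the difference between these was not tested. Of the 203 flanking regions that limma tested, 5 (2.46%) were called higher for EGF minus ctrl and 0 lower, against backgrounds of 1.05% and 2.9%. Near kept gains 4 of 200 (2%) were called higher and 5 (2.5%) lower. For siArid1aplusEGF minus EGF, 0 of the 203 were called, against a background of 0.426% lower and 0.234% higher. Nothing is read from this count. In that comparison 3047 of all regions had an unadjusted p under 0.05.

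**Figure D5:**
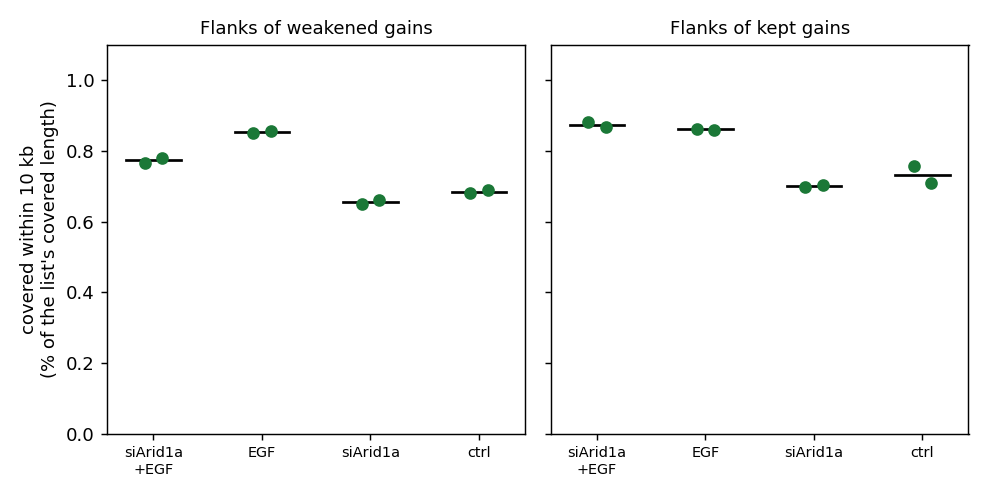
Covered length within 10 kb as a percent of each list's own covered length (vertical), per library (points) and as the group mean (lines), for flanks of weakened gains (left) and of kept gains (right). Near weakened gains the means are 0.774% in siArid1aplusEGF, 0.853% in EGF, 0.655% in siArid1a and 0.684% in ctrl libraries.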

How the data were processed

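ChIP-seq of H3K27ac gave 2 libraries for each of 4 groups. The authors deposited 1 list of peaks per library, so peaks were not called on pooled samples. MACS2 2.1.1.20160309.0, Bowtie2 2.3.4.2, deepTools 3.0.2, SAMtools and build mm9 are named in the submitters' processing notes without a role or order. How the caller was set, and on which input, is not given in the sources used here. In each deposited list, the score equals 10 times −log10 q cut to a whole number. The fold column, as deposited, is an enrichment ratio against what the caller took as background. The authors' −log10 q and −log10 p stand beside it for every peak. These values are the authors' own and were used to rank or describe peaks within a list.

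Peaks sharing at least 1 bp were merged over all lists, and a library had a peak where at least 1 bp was covered. Percentiles are ranks by −log10 q within a list. Limma 3.58.1 in R 4.3.3 (empirical Bayes with a trend, a mean per group, all 8 libraries, Benjamini-Hochberg over regions, threshold 0.05) was fitted to log2(covered bp + 200), on which differences of short peaks are understated. The rest was done in Python 3.11.15 with SciPy 1.17.1, matplotlib 3.10.9, NumPy 2.4.6 and pandas 2.3.3. The interval steps and limma were tested on simulated data. Members, lists and tests were chosen with earlier results of these data known. Regions named are the 10 and 8 strongest of the 2 classes, the 6 strongest with both siArid1a peaks and no siArid1aplusEGF peak, the 3 widest and 2 weakest per class, and the 4 closest pairs, of which the text gives some; the regions of looser runs were chosen after their values were seen. Alternatives were stricter and equal-length lists, other merging and cover rules, another pseudocount and filter, quantile normalization, a replicate block, wider flanks and leaving out each library. Without an mm9 genome or annotation, gene lists, marker genes and sequences of the regions were not analysed here.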

Additional observations from a re-analysis of the deposited data

Results flagged for a closer look

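In 13 regions the EGF effect had opposite directions in the Arid1a states in every library, with a peak in both EGF but no ctrl library and in both siArid1a but no siArid1aplusEGF library. Covered length in them ranged from 207 to 1681 bp in the first and 200 to 1036 bp in the second EGF library, and from 200 to 1370 bp and 215 to 785 bp in the siArid1a libraries. For the region on chromosome 15 from 30534862 to 30536453 the fitted difference between the EGF effects was -5.07 ± 0.48 on the log2(covered bp + 200) scale (SE, limma), and for the other 5 highest-ranked of the 13 it lay between -4.89 and -2.59. The 13 were picked for this pattern, so these sizes restate the choice. The adjusted p of the difference (limma) was 0.153 in each region whose size is given, and nothing is read from it. In the region on chromosome 2 from 163720575 the siArid1a peaks alone joined the EGF peaks.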

How the results depend on the processing

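The weakened gains are mostly weak peaks, and their number moved with the lists used. With only peaks at or above the median score of their list there were 138 regions without and 77 with 1 siArid1aplusEGF peak, 8 with both siArid1a peaks, and 1 of the 365 regions remained. Lists of equal length gave 282 and 291, and overlapped 293 of the 365. A required cover of 50% gave 273 without a siArid1aplusEGF peak and 58 with both siArid1a peaks. Leaving out a library gave 180 to 604 regions without and 185 to 463 with 1 siArid1aplusEGF peak, and 41 to 279 with both siArid1a peaks; with 1 siArid1aplusEGF library left, the class with 1 peak includes kept gains. Merging up to 1000 bp apart moved none of these counts by over 1.5 times.

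For the flanks, EGF minus ctrl was -75.3 kb within 50 kb and -29.2 to 62.9 kb when a library was left out. For siArid1aplusEGF minus EGF it was -33.5 to -8.78 kb.

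Limma calls are given for 4 comparisons in this order: EGF minus ctrl, siArid1aplusEGF minus EGF, siArid1a minus ctrl and siArid1aplusEGF minus siArid1a. With a pseudocount of 1000 bp, 61, 0, 0 and 1 weakened gains were called, among 806, 0, 121 and 1647 of all regions. With every region fitted the counts were 53, 2, 0 and 1, among 706, 98, 0 and 1368 of all regions. The last 3 were 12, 0 and 0 after quantile normalization, among 178, 0 and 902 of all regions. Calls over all regions are in either direction. The replicate numbers did not pair the libraries (correlations of replicate differences between groups were -0.0093 to 0.032). With a replicate block the 4 counts were 0, 0, 0 and 1, among 0, 0, 0 and 1176 of all regions. In that fit limma had 313, 218 and 24 members at an unadjusted p under 0.05 for the first 3 comparisons. Without the block these were 310, 226 and 24 members, among 5162, 3047 and 3576 of all regions. Leaving out a library gave 0 to 111, 0 to 77, 0 to 9 and 0 to 9 calls, and 0 to 71 for the difference in EGF effects. In the other settings with every library, some counts were 0. There limma had 231 members at an unadjusted p under 0.05 for the second comparison, 2 to 24 for the third and 4 for the fourth. As reported, the fourth had 14 such members among 7010 of all regions. The choice of members used groups of each comparison, so nothing is read from these unadjusted counts.

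Of the 41 regions eligible to be named, siArid1aplusEGF minus EGF turned positive in 6, all with 1 siArid1aplusEGF peak. On chromosome 3, from 79752821, it was 0.11 with a pseudocount of 1000 bp, 0.092 after quantile normalization and -1.32 to 1.23 with a library left out. With a library left out it was -1.91 to 0.61 on chromosome 8 from 10977957, -3.88 to 0.016 on chromosome 5 from 113386930, -2.10 to 0.35 on chromosome 2 from 164642817, -1.32 to 0.70 on chromosome 4 from 133441747, and -1.44 to 0.25 on chromosome 7 from 121990387. The cause of these changes was not tested. EGF minus ctrl turned negative in none of the 41.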

Other observations

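Regions of the exchanged pattern, with a peak in both siArid1aplusEGF libraries and in no ctrl library, were also counted by their siArid1a peaks. Of the 185 without an EGF peak, 88 had a peak in both siArid1a libraries, 51 in 1 and 46 in none. Of the 157 with 1 EGF peak, 66 had both, 48 had 1 and 43 had none. Over all regions, 69.5% had both, 17.0% had 1 and 13.4% had none. A siArid1a peak was thus not more frequent in the exchanged pattern than over all regions, but all regions include those with ctrl peaks. Among regions without a ctrl peak it was more frequent in the exchanged pattern. There 46 of 185 and 43 of 157 had no siArid1a peak, against 276 of 365 weakened gains and 137 of 313 kept gains. The siArid1a and siArid1aplusEGF libraries share the siRNA, while the siArid1a and EGF libraries share neither agent. Any part of this in the counts was not tested.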
